A study of Mus musculus with 2 samples.

Results

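The genes described here encode the proteins that recognise and remove introns: SR proteins, heterogeneous nuclear ribonucleoproteins (hnRNPs), the SF3A and SF3B subunits, the U2AF subunits and the proteins of the small nuclear ribonucleoproteins (snRNPs) named Snrp. They were chosen by symbol alone, as the rows whose symbol is Srsf with a number, or begins with Hnrnp, with Sf3a or Sf3b and a number, with U2af or with Snrp. The rule took 53 of the 14774 listed genes, namely 10 SR protein genes, 20 hnRNP genes, 9 SF3A and SF3B genes, 3 U2AF genes and 11 Snrp genes. RefSeq holds 56 protein-coding genes with such symbols, and the other 3, Srsf12, Snrpn and Hnrnpa1l2-ps2, were not analysed here.

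RNA was sequenced from CD4+CD25+ cells of C57BL/6 mouse spleens, labelled regulatory T cells (Tregs), after co-culture for 5 days with SVEC4-10, an endothelial cell line of mouse origin. In the control co-culture the SVEC4-10 cells had been given a control oligonucleotide, and in the knockdown co-culture small interfering RNA directed at Capns1, the gene of the regulatory subunit that both conventional calpains, proteases activated by calcium, have in common. The interfering RNA was given to the SVEC4-10 cells and not to the sequenced T cells, and the labels do not say how many mice gave the cells or how T cells were separated from the endothelial cells afterwards. Each condition had 1 library, and the listed genes held 47724379 control reads and 46938963 knockdown reads. A fold is the ratio of library-scaled counts per 1000000 reads (CPM), knockdown over control. Its bracketed 95% interval is the exact interval of the ratio of reads. It covers counting error only, and it compares the libraries, not the conditions. It takes reads as independent, so it is too narrow where reads were copied by PCR. With no replicates there is no test between conditions and no p-value. Which column is the knockdown was read from the prefix Si, so every direction rests on that reading.

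Introns are removed by the spliceosome, which is rebuilt on every intron. The U1 snRNP pairs with the 5′ splice site, U2AF binds the pyrimidine tract and the AG at the 3′ splice site, and the U2 snRNP with its SF3A and SF3B proteins pairs with the branch point. Most spliceosomal snRNAs carry a ring of Sm proteins. SR proteins bind exonic enhancers and mostly favour exon inclusion, hnRNPs coat pre-mRNA and often oppose it, and the balance of both is known to shape isoform choice in activated lymphocytes.

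Promoter sequences show what the genes share that the symbol rule did not use. They came from RefSeq (build GRCm38.p6), where 46 of the 53 genes matched, and the 250 bases before each annotated start were searched on both strands for 4 motifs. The ETS motif CCGGAAG was found in 6 of 7 matched SF3A and SF3B genes and in 2 of 18 hnRNP genes, against 14.5% of 11345 matched listed genes. CCAAT was found in 13 of 18 hnRNP genes and in 2 of 7 SF3A and SF3B genes, against 40.5% of listed genes. The GC box CCGCCC was found in 33 of the 46 genes, against 59.1%, and the NRF1 motif (GCGC and TGCGC separated by any base) in 10 of the 46, against 8.50%. No motif holds another, although neighbouring matches can share end letters. A match is a description of letters, not a binding site. The 120 bases before the start are printed below, 5′ to 3′ on the gene's strand, for SF3 genes with the ETS motif (Sf3a1, Sf3a2, Sf3b2) and without it (Sf3b1), and for the highest and lowest genes by fold among the matched hnRNPs (Hnrnpab, Hnrnpr) and Snrp genes (Snrpd2, Snrpb2). Capitals mark the 4 motifs on either strand. Sf3b2 and Hnrnpr have 2 annotated starts each, of which the first in the table is printed. Sf3a1 is at chr11:4160234-4160353 (+), Sf3a2 at chr10:80798615-80798734 (+), Sf3b2 at chr19:5295458-5295577 (-), Sf3b1 at chr1:55027479-55027598 (-), Hnrnpab at chr11:51606882-51607001 (-), Hnrnpr at chr4:136310822-136310941 (+), Snrpd2 at chr7:19149718-19149837 (+) and Snrpb2 at chr2:143062949-143063068 (+).
Sf3a1: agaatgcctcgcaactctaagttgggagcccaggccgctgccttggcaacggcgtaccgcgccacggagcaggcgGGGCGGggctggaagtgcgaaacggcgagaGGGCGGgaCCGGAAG
Sf3a2: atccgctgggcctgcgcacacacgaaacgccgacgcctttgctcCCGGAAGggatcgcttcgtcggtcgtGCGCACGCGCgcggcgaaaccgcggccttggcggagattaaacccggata
Sf3b2: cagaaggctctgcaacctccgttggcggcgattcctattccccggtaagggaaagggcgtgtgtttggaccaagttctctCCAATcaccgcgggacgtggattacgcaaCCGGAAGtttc
Sf3b1: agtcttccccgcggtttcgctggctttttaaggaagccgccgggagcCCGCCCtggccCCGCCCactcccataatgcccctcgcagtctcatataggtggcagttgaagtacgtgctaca
Hnrnpab: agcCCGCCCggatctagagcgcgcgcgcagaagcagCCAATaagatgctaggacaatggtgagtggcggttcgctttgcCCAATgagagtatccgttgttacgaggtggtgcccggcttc
Hnrnpr: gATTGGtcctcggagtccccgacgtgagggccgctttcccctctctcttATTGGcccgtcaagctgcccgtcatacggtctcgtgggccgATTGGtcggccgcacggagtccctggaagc
Snrpd2: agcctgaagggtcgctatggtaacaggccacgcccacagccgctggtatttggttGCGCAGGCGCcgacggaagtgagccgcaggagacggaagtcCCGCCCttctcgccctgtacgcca
Snrpb2: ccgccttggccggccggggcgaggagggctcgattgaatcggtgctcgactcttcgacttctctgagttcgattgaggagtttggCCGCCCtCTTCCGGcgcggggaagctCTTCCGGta
The lines show ETS letters close to the start in Sf3a1 and Sf3b2 and, as the reverse complement, in Snrpb2, and several copies of CCAAT or its reverse complement in both hnRNP genes. Hnrnpab and this start of Hnrnpr share the feature. Whether motifs go with the folds given below was not tested. The other annotated start of Hnrnpr has GC boxes and no CCAAT letters.

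Over the 53 genes the libraries were close, with a small excess of genes higher in the knockdown co-culture. Folds ran from 0.942 for Sf3b1 to 1.17 for Sf3b5, with a median log2 fold of 0.05 against 0.00 over all listed genes. None was 1.2-fold apart in either direction, and so none 1.5-fold or 2-fold. Over all listed genes 5.22% were at least 1.2-fold higher and 8.22% lower, 0.291% at least 1.5-fold higher and 1.22% lower, and 0.00677% at least 2-fold higher and 0.135% lower. Every listed gene has at least 100 control reads, while knockdown reads go lower, as for C1qc with 64. Genes low in the control and high in the knockdown library are thus missing, and all shares over listed genes may understate higher genes. At a fold of 1.1, 10 of the 53 were higher (19.3% of all listed genes) and 0 lower (21.0%). Intervals lay above 1 for 26 of the 53, against 24.2% of all listed genes, and below 1 for 7, against 22.7%. All 53 genes are well covered, from 2418 reads in both libraries together upwards, and among the 7980 genes with at least as many reads 32.8% of intervals lay above 1 and 27.0% below. The SD of the log2 fold was 0.08 over the 53 genes and 0.14 over those 7980. In sum they took 1.31% of the control reads on listed genes and 1.33% of the knockdown reads.

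**Figure D1:**
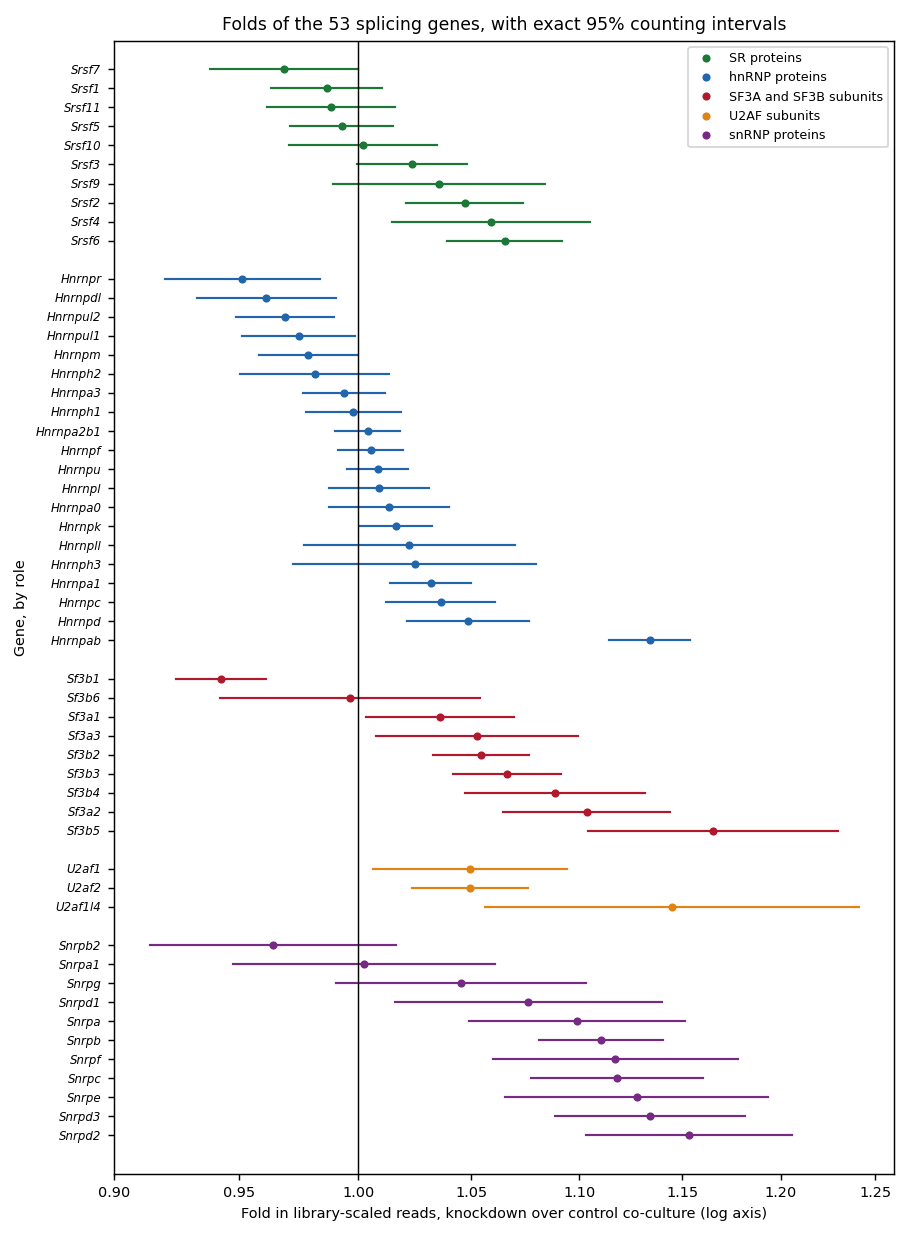
Fold of each of the 53 genes (points) with its exact 95% counting interval (bars), knockdown over control co-culture on a log axis, grouped by role. The Snrp and SF3 genes lie mostly to the right of 1, with Sf3b1 at 0.942 and Snrpb2 at 0.964 as the lowest of their groups, while SR and hnRNP genes lie on both sides.

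Capns1 itself had 11650 control and 11015 knockdown reads, a fold of 0.969 (0.944 to 0.994), which does not check the labels because its transcript was targeted in the SVEC4-10 cells alone. Values below are in the order control, then knockdown co-culture. The labelled cell type has to be read with its markers. Foxp3, the Treg transcription factor, had 250 control and 221 knockdown reads, and all 4 Treg markers were listed, with a summed level of 21.3 and 19.5 CPM. The 5 general T cell markers summed to 88.9 and 82.8 CPM. The 2 CD8 T cell markers summed to 110 and 102 CPM, more than those 5 together, with Cd8a at 63.9 and 56.5 CPM. Cd4 stood at 8.22 and 6.25 CPM. The 3 listed erythroid and platelet markers summed to 1632 and 1460 CPM, and the 4 dendritic cell markers to 28.5 and 25.1 CPM. All 5 B cell markers summed to 2138 and 1935 CPM, 9 of 10 macrophage and monocyte markers to 1149 and 803 CPM, and all 5 markers of matrix-producing cells to 1705 and 1656 CPM. Most of the last sum was Col5a2, at 1009 and 933 CPM, and Col1a1, at 553 and 583 CPM. Their folds were 0.925 (0.913 to 0.937) and 1.05 (1.04 to 1.07), and the other 3 intervals included 1. Most of the macrophage and monocyte sum was Lyz2, at 875 and 643 CPM. All 9 of these markers had intervals below 1, with a median fold of 0.488, and 5 of the 9 were among the 20 listed genes at least 2-fold lower in the knockdown library. Of the B cell markers, 4 of 5 intervals lay below 1. The 3 listed neutrophil markers summed to 160 and 202 CPM, with S100a8 at 1.26 (1.201 to 1.33), S100a9 at 1.29 (1.24 to 1.35) and Retnlg in the other direction at 0.717 (0.583 to 0.879), and 2 of the 5 endothelial markers were listed, at 86.9 and 82.1 CPM in sum. No listed marker was at 0. Spliceosomal genes are expressed by most of these cells, so their reads cannot be assigned to one of them. The part of cell composition in the folds was not tested. In bulk RNA, more cells of a type and more RNA per cell cannot be told apart.

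By group median the snRNP genes stood highest, at 0.15 on the log2 scale against 0.08 for the SF3A and SF3B genes. That order turned once folds were taken relative to genes of like transcript length, by subtracting a running median over length, when the medians were 0.056 and 0.070. The Sm ring consists of Snrpb (SmB), Snrpd1, Snrpd2, Snrpd3, Snrpe, Snrpf and Snrpg, which close around the snRNA, and all 7 of their folds were above 1. Among the 14774 listed genes 7411 had a fold above 1. Snrpd2 (NCBI Gene 107686) had 3695 control and 4159 knockdown reads, 77.1 and 88.9 CPM, a fold of 1.15 (1.103 to 1.21). Snrpd3 (67332) had 4375 and 4842 reads, 91.3 and 104 CPM, a fold of 1.13 (1.09 to 1.18). The most abundantly read, Snrpb (20638), had 10517 and 11397 reads, 220 and 244 CPM, a fold of 1.11 (1.08 to 1.14). For each of these the knockdown library was the higher. Snrpe stood at 1.13 (1.07 to 1.19), Snrpf at 1.12 (1.06 to 1.18) and Snrpd1 at 1.08 (1.02 to 1.14), while the interval of Snrpg included 1 at 1.05 (0.990 to 1.103). With the length trend removed 4 of the 7 intervals lay above 0, and those of Snrpf, Snrpd1 and Snrpg included it. Summed over the ring, reads were 28511 and 30965, a fold of 1.11 (1.095 to 1.13). Because the subunits assemble in equal numbers, their levels per length are of interest. Per kilobase of transcript the control levels of the ring ran from 30.1 CPM for Snrpd3 to 189 CPM for Snrpb, and the knockdown levels from 34.1 to 210 CPM for the same genes. The reference transcript of Snrpd3 is long, at 3036 bases, which lowers its value on this scale.

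The Snrp proteins that belong to a single snRNP were less uniform. In the U1 snRNP, Snrpc, the C protein, which stabilises the pairing with the 5′ splice site, had 5404 and 5896 reads, 113 and 126 CPM, a fold of 1.12 (1.08 to 1.16). Snrpa, the A protein, which binds a stem-loop of U1 snRNA, had 3449 and 3699 reads and a fold of 1.099 (1.05 to 1.15). In the U2 snRNP, Snrpb2, the B′′ protein, had 2861 and 2691 reads, 59.7 and 57.6 CPM, a fold of 0.964 (0.914 to 1.02). Its partner Snrpa1, the A′ protein, had 2454 and 2401 reads and a fold of 1.003 (0.947 to 1.06). The intervals of both U1 genes lay above 1, and both U2 intervals included 1. Relative to genes of like transcript length 3 of these 4 calls changed, with log2 folds of 0.056 for Snrpc, still above 0, 0.049 for Snrpa, with an interval that included 0, and -0.11 for Snrpb2 and -0.094 for Snrpa1, both below 0. That the genes divide in this way was noticed after their values were seen.

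**Figure D2:**
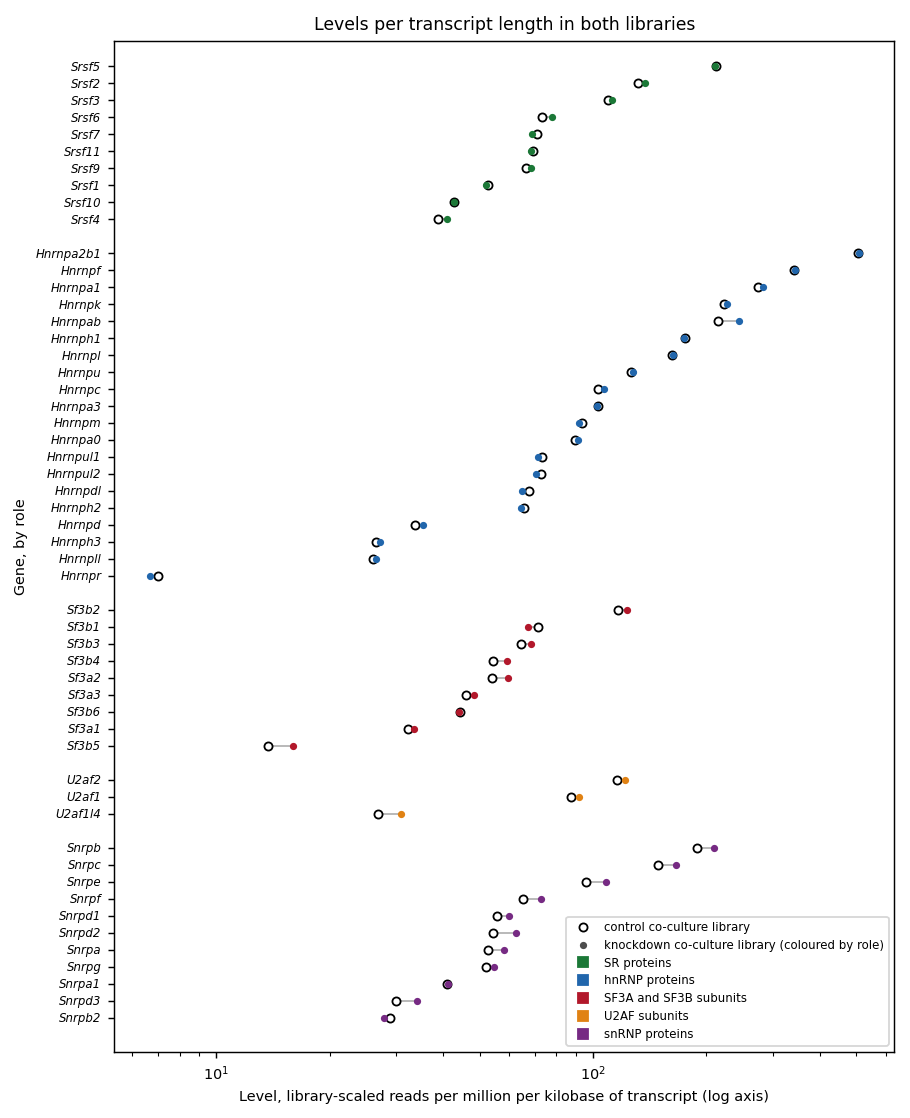
Level of each gene in library-scaled CPM per kilobase of transcript (log axis), in the control (open circles) and the knockdown co-culture library (filled circles), ordered within each role by the control level. Gaps between the libraries are small beside the spread between genes, which runs from 7.01 for Hnrnpr to 506 for Hnrnpa2b1 in the control.

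Of the 9 SF3A and SF3B genes, 7 intervals lay above 1 and that of Sf3b1 lay below, beside 24.2% and 22.7% of all listed genes. SF3B clamps the branch point helix. Sf3b1 (81898), its scaffold and the target of recurrent mutations in myeloid neoplasia, had 21189 and 19489 reads, 442 and 417 CPM, a fold of 0.942 (0.924 to 0.961). Sf3b2 (319322), the partner of Sf3b4, had 17988 and 18510 reads, 375 and 396 CPM, a fold of 1.05 (1.03 to 1.08). Sf3b3 (101943), a beta-propeller protein, had 13963 and 14527 reads, 291 and 311 CPM, a fold of 1.07 (1.04 to 1.09). These 3 hold most of the reads of the group, and of the 3 Sf3b1 alone was higher in the control. Sf3b5 (66125), the smallest subunit by coding length at 258 bases, had 2534 and 2882 reads, 52.9 and 61.6 CPM, a fold of 1.17 (1.104 to 1.23). Sf3b4 stood at 1.09 (1.05 to 1.13), and Sf3b6, the p14 subunit that touches the branch point adenosine, at 0.996 (0.942 to 1.05). In SF3A, the complex that joins SF3B to the U2 snRNP, Sf3a2 stood at 1.103 (1.06 to 1.14), Sf3a3 at 1.053 (1.007 to 1.0996) and Sf3a1 at 1.04 (1.004 to 1.07). Thus the subunits of one complex did not share one fold: the intervals of Sf3b1 and of Sf3b2, Sf3b3, Sf3b4 and Sf3b5 did not overlap. Which gene lay below depended on the scale. Relative to genes of like transcript length the interval of Sf3b1 included 0, at -0.02, and that of Sf3b6 lay below 0, at -0.094. With coding length in its place both lay below 0, at -0.039 and -0.104.

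Both subunits of U2AF stood slightly above equality, a difference that was lost relative to genes of like transcript length, where the log2 fold was 0.017 for U2af2 and -0.024 for U2af1 and none of the 3 U2AF intervals lay above 0. U2af2 (U2AF65), which reads the pyrimidine tract, had 12109 and 12401 reads, 253 and 265 CPM, a fold of 1.05 (1.02 to 1.08). U2af1 (U2AF35), which reads the AG, had 4373 and 4478 reads, 91.3 and 95.8 CPM, a fold of 1.05 (1.01 to 1.09). U2af1l4, a U2af1-like gene, had 1142 and 1276 reads, 23.8 and 27.3 CPM, a fold of 1.14 (1.06 to 1.24). Its reads may not be its own, since 97.2% of the 50-base words of its transcript also occur in a transcript of another annotated gene, Gm49396. The same holds for 59.4% of the words of U2af1 and 29.9% of those of U2af2.

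SR protein genes lay close to equality on both sides. Of 10, 3 intervals lay above 1, 1 below and 6 included it, beside 24.2% above and 22.7% below over all listed genes. The median log2 fold of the SR genes was 0.02. Srsf5 (20384), the most abundantly read, had 15968 and 15473 reads, 333 and 331 CPM, a fold of 0.993 (0.971 to 1.02). Srsf3 (20383), the smallest SR protein by coding length here at 492 bases, had 13755 and 13740 reads, 287 and 294 CPM, a fold of 1.02 (0.9996 to 1.05). Srsf1 (110809), the founding SR protein, had 13563 and 13057 reads, 283 and 279 CPM, a fold of 0.986 (0.963 to 1.01). None of these 3 differed beyond counting error. Srsf6 (67996) was the highest, with 12350 and 12840 reads, 258 and 275 CPM, a fold of 1.07 (1.04 to 1.09). Srsf7 (225027), a close relative of Srsf3, was the lowest, with 7798 and 7370 reads, 163 and 158 CPM, a fold of 0.968 (0.938 to 0.9999). Srsf2 (SC35) and Srsf4 were the other genes with an interval above 1, at 1.05 (1.02 to 1.07) and 1.06 (1.01 to 1.11), and Srsf9, Srsf10 and Srsf11 had intervals that included it. Once the trend on transcript length was removed, the intervals of Srsf2 and Srsf4 included 0, at log2 folds of 0.018 and 0.037. On that scale 1 of the 10 lay above 0, Srsf6, and 2 below, Srsf5 at -0.085 and Srsf7 at -0.092. SR proteins are known to limit their own mRNA through unproductive splicing, and GENCODE M21 lists transcripts routed to nonsense-mediated decay for 9 of the 10 genes, beside 3 of 3 U2AF, 10 of 20 hnRNP, 4 of 11 Snrp and 1 of 9 SF3A and SF3B genes. Decay and retained-intron classes together make up 48.2% of the SR transcripts, 61.5% of the U2AF, 55% of the SF3A and SF3B, 35.4% of the hnRNP and 35.3% of the Snrp transcripts. Reads were counted per gene, so productive and unproductive transcripts are not told apart in these values.

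The hnRNP genes included the most abundantly read genes of all and lay close to equality. Of 20, 5 intervals lay above 1, 5 below and 10 included it. The 25% above and 25% below are close to the 24.2% and 22.7% of all listed genes. The median log2 fold of the hnRNP genes was 0.01, and it was below 0 when the libraries were scaled by total counts or by upper quartile. Hnrnpu (51810), the scaffold attachment factor, had 46303 and 45565 reads, 966 and 975 CPM, a fold of 1.01 (0.995 to 1.02). Hnrnpa2b1 (53379), an RNA-sorting and m6A-binding protein, had 40261 and 39452 reads, 840 and 844 CPM, a fold of 1.004 (0.990 to 1.02). Hnrnpf (98758), a binder of G-runs, had 39345 and 38606 reads, 821 and 826 CPM, a fold of 1.01 (0.991 to 1.02). With this many reads the intervals are narrow, and the libraries did not differ beyond them on this scale. Relative to genes of like transcript length they did, with log2 folds of 0.11 for Hnrnpu, -0.058 for Hnrnpa2b1 and -0.027 for Hnrnpf. There 6 of the 20 hnRNP intervals lay above 0 and 7 below, beside 22.2% and 21.9% of all listed genes with a length. Hnrnpll, which is known to direct Ptprc (CD45) exon skipping in activated T cells and plasma cells, had 3751 and 3742 reads, a fold of 1.02 (0.977 to 1.07). It was named after its value was seen.

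The highest fold among the hnRNP genes was that of Hnrnpab (15384), a protein of the A/B family. It had 24368 and 26966 reads, 509 and 577 CPM, a fold of 1.13 (1.11 to 1.15). The next highest was Hnrnpd (AUF1), at 1.05 (1.02 to 1.08), whose interval did not overlap that of Hnrnpab. Relative to genes of like transcript length the gap closed, with log2 folds of 0.15 for Hnrnpab, 0.14 for Hnrnpd, 0.11 for Hnrnpu and 0.10 for Hnrnpr. With coding length in its place these were 0.15, 0.03, 0.04 and -0.06. Hnrnpc, which binds uridine tracts, Hnrnpa1 and Hnrnpk followed at 1.04 (1.01 to 1.06), 1.03 (1.01 to 1.05) and 1.02 (1.0006 to 1.03). At the low end Hnrnpr (74326) had 7200 and 6683 reads, 150 and 143 CPM, a fold of 0.951 (0.920 to 0.983). Hnrnpdl, Hnrnpul2, Hnrnpul1 and Hnrnpm followed, with folds from 0.961 to 0.979 and intervals below 1. Per kilobase of transcript, control levels ran from 506 CPM for Hnrnpa2b1, 342 CPM for Hnrnpf and 274 CPM for Hnrnpa1 down to 26.0 CPM for Hnrnpll. Hnrnpr lay lower still, at 7.01 CPM, on a reference transcript of 21452 bases. Hnrnpa1 and Hnrnpf share many words with annotated copies: 46.4% and 49.0% of their 50-base words occur in transcripts of other genes. The deposited table itself lists Gm10052, an Hnrnpa1 pseudogene with 5956 and 6182 reads, so reads may have been divided between the copies.

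Folds went with transcript length, among these genes as among all. Over the 53 genes, Spearman's rho of log2 fold with length was -0.44, and over the 13392 listed genes with a transcript length it was -0.33. With the GC content of the transcript it was 0.46 and 0.24. These are descriptions across genes of the same libraries, and genes are not replicates. The 19 genes under 2000 bases had a median log2 fold of 0.07 and 13 intervals above 1, beside 0.08 and 40.3% for all listed genes of that length. The 34 longer genes had a median of 0.02 with 13 intervals above 1 and 7 below, beside -0.01, 20.6% and 27.2%. Sm proteins are short, and the reference transcripts of the ring had a median of 1055 bases against 3014 over all listed genes. With the running median over length subtracted, the median log2 fold of the ring was 0.06 in place of 0.16, with 4 of 7 intervals above 0 on that scale, and that of all 53 genes was 0.01, with 18 above and 12 below, beside 22.2% above and 21.9% below of all listed genes with a length. The 12 below are 22.6% of the 53. The median of the SF3A and SF3B genes moved little, from 0.08 to 0.07, with 6 of 9 intervals above 0 and 1 below, that of Sf3b6. Sf3b1, which has 6195 bases, stood at -0.02 in place of -0.09. The part that length itself has in these folds was not tested.

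**Figure D3:**
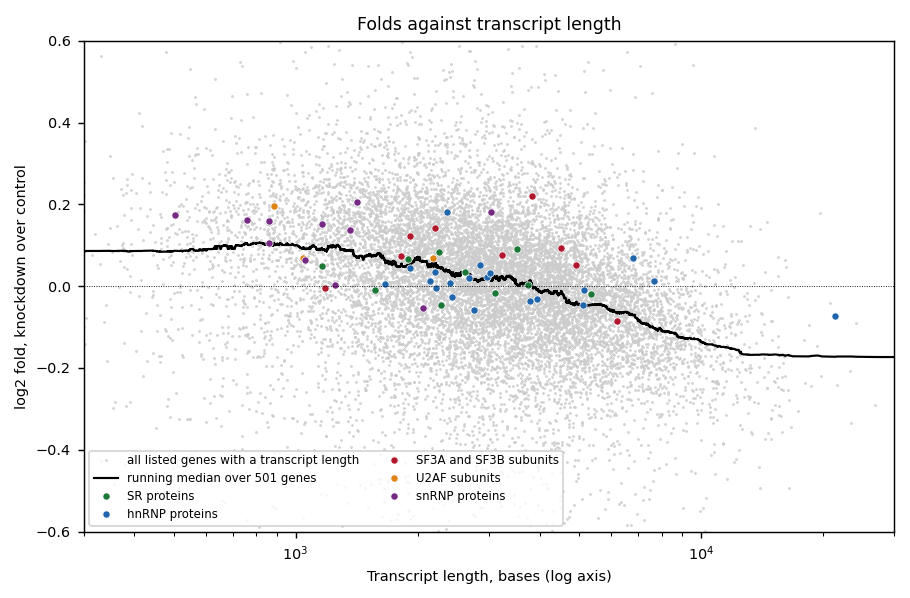
Log2 fold (vertical axis) against transcript length in bases (log axis) for all listed genes with a length (grey), their running median over 501 genes (black line) and the 53 genes by role (coloured). Short transcripts lie higher, and several Snrp genes lie above the line by less than they lie above 0, while genes beyond the axes are not drawn.

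The rest of the splicing machinery was described by 11 further lists holding 132 genes, all of them listed in the table. None was 2-fold apart, 2 were at least 1.2-fold higher and 0 lower. Intervals of 52 lay above 1 and those of 23 below, with a median log2 fold of 0.04. Over all listed genes 24.2% lay above 1 and 22.7% below, which is the background for each list that follows. The lists closest to the snRNPs stood higher. The LSm ring, the Sm-like ring of U6 snRNA, had a median of 0.14, with 5 of 7 intervals above 1 and 0 below, and its most abundantly read members were Lsm4 at 1.13 (1.07 to 1.18) and Lsm3 at 1.097 (1.04 to 1.16). The SMN complex and its partners, which load Sm proteins onto snRNA, had a median of 0.11, with 7 of 12 above and 0 below. Strap and the methylosome protein Wdr77 stood at 1.095 (1.07 to 1.12) and 1.08 (1.03 to 1.13), and Gemin8 at 1.35 (1.15 to 1.58) on 270 and 355 reads. The proteins of the tri-snRNP and U1 outside the symbol rule had a median of 0.10, with 11 of 18 above and 2 below. The 2 below encode some of the largest core spliceosomal proteins, Prpf8 at 0.926 (0.909 to 0.942), the core of the active site, and the helicase Snrnp200 at 0.953 (0.931 to 0.975). Their transcripts are long, at 7442 and 6745 bases, and relative to genes of like length neither differed beyond counting error, with log2 folds of -0.01 and 0.00.

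The exon junction complex list had a median of 0.10, with 4 of 6 intervals above 1 and 1 below, including its helicase Eif4a3 at 1.1003 (1.07 to 1.13) and Rbm8a at 1.05 (1.01 to 1.09). Factors of the minor spliceosome, which removes a rare class of introns, had a median of 0.04, with 4 of 10 above and 0 below. Zrsr1 and Zcrb1 stood at 1.18 (1.15 to 1.21) and 1.17 (1.12 to 1.22), and Snrnp25 at 1.23 (1.11 to 1.37) on 687 and 828 reads. Prp19 complex and activation factors had a median of 0.06, with 8 of 16 above and 1 below, Prpf19 standing at 1.03 (1.002 to 1.07) and Aqr at 0.989 (0.955 to 1.02). The catalytic step factors lay at 0.05, with 3 of 6 above and 1 below, and held Dhx16 at 1.097 (1.06 to 1.14) and Dhx38 at 1.05 (1.01 to 1.09).

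The further lists of splicing regulators had medians a little below equality, as did the branch point and U2 partners. The SR and hnRNP genes, regulators within the symbol rule, had medians a little above it, at 0.02 and 0.01. The SR-like proteins had a median of -0.03, with 3 of 12 intervals above 1 and 5 below. Srrm2 and Son, giant proteins that build nuclear speckles, stood at 0.869 (0.857 to 0.882) and 0.916 (0.900 to 0.932), on 42009 and 28510 control reads. Their transcripts have 8564 and 8399 bases. Relative to genes of like length the log2 folds were -0.09 for Srrm2 in place of -0.20, and -0.01 for Son in place of -0.13. The kinases of SR proteins had a median of -0.05, with 1 of 6 above and 2 below, Clk1 standing at 0.907 (0.877 to 0.939) and Srpk1 at 1.02 (0.986 to 1.06). The other RNA-binding regulators had a median of -0.01, with 3 of 30 above and 9 below, and their most abundantly read members Rbm39 and Sfpq had intervals that included 1. The branch point and U2 partners had a median of -0.01, which was 0.013 relative to genes of like transcript length and 0.024 as a mean, with 3 of 9 above and 2 below, Sf1, the branch point binding protein, standing at 0.988 (0.967 to 1.01) and the helicase Dhx15 at 0.949 (0.923 to 0.976). Length moves with this order in part. The SR-like list had a median transcript of 3997 bases, and with the length trend removed its median was -0.01 while that of the LSm ring was 0.06. Other lists did not follow. The kinases had a median transcript of 2325 bases and went from -0.05 to -0.06. The tri-snRNP and U1 list had 3166 bases and went from 0.10 to 0.08.

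**Figure D4:**
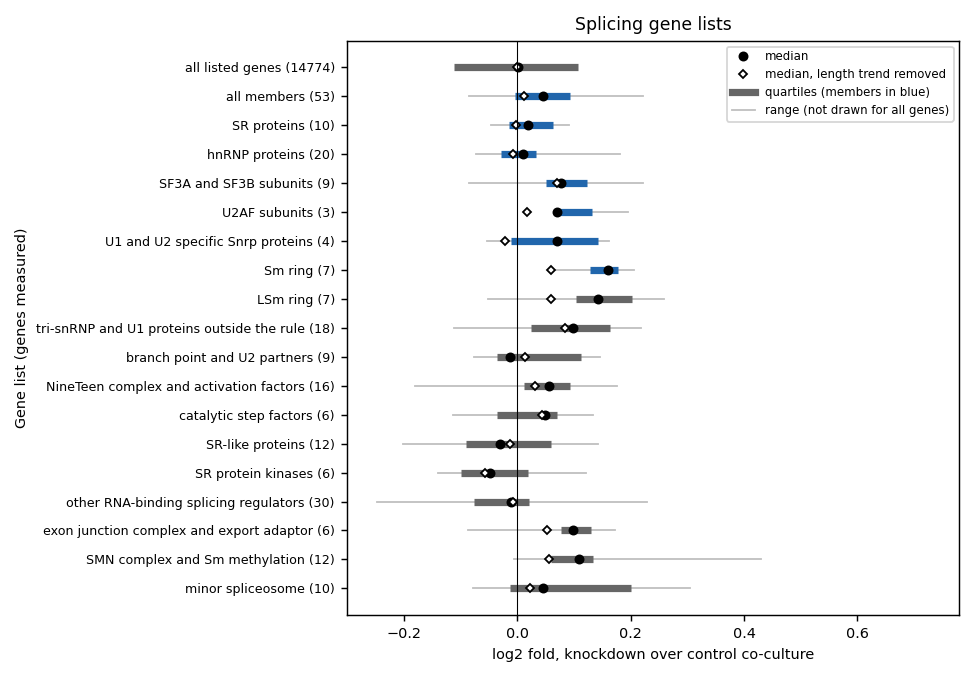
Median log2 fold (filled circles), quartiles (thick bars) and range (thin lines, except for all listed genes) of each list, knockdown over control co-culture, with the median after removal of the length trend (open diamonds). The Sm and LSm rings have the highest medians, 0.16 and 0.14, and both come down to 0.06 once the trend is removed.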

How the data were processed

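The authors deposited 1 table for both libraries. Its raw counts of reads mapped to each gene (named so per the file headers) were the only values used. The deposited signal columns, which hold these counts after library scaling, and the authors' log2 ratios were left out. Per the submitters' processing notes Trimmomatic 0.39, BWA 0.7.17 and 2 builds, mm8 and GRCm39, were involved, with no roles stated, so no coordinates of the counts are given. Not given in the sources used here are the use of strand and the treatment of reads matching several genes. The row of totals was left out, and reads on no listed gene made up 0.782% and 0.764% of it. Every listed gene has at least 100 control reads.

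Library sizes were scaled with edgeR 4.0.16 (TMM) in R 4.3.3, and the rest was run in Python 3.11.15 with scipy 1.17.1. The minimum was 10 reads over the 2 libraries, which all genes met. Intervals are exact Clopper-Pearson intervals of the ratio of reads. The calculations were tested on simulated data. Transcript length is that of the longest GENCODE M21 transcript tied to a RefSeq mRNA named in the gene's row (all 53 genes), else of the longest coding transcript of the gene. The running median spanned 501 genes. In each role the 3 genes with most reads and the highest and lowest fold are given in full, and in each further list the 2 with most reads and any past 1.2-fold. Genes and lists were chosen with earlier results of these data known. Alternatives covered DESeq2 1.42.0 size factors, total and upper-quartile scaling, filters, a prior count, length trends, thresholds and shared words.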

Additional observations from a re-analysis of the deposited data

How the results depend on the processing

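No paired analysis was possible because each group has 1 library, and no replicate could be left out. Of 369 values recomputed, 326 stayed within a set margin. For a single gene it was the distance from the middle to the end of its counting interval on the log2 scale. For a list median it was the median of these distances over its genes, which is not an error of the median. For counts it was a factor of 1.5. Under transcript length the LSm median, from 0.142 to 0.060, and the U2AF median, from 0.070 to 0.017, fell within it. All 141 under DESeq2 size factors, total counts or upper-quartile scaling were among the 326. The median log2 fold of the hnRNP genes, 0.010, changed sign within that margin, to -0.001 with total counts and -0.004 with upper-quartile scaling. The numbers with an interval above 1 were 22 under both of these. The tally of 326 was partly fixed in advance. All genes met the minimum of 10 reads, so the 25 values without a filter could not change. A minimum of 1000 reads left out none of the 53 genes. Each scaling moved all log2 folds by 1 common amount. Most shifts came with the length trends: 16 values moved and 1 reversed under transcript length, and 21 moved under coding length. With the trend on transcript length removed, 12 of the 53 intervals lay below, and the median log2 fold was 0.056 for the Snrp genes, 0.059 for the Sm ring and -0.023 for the U1 and U2 specific genes. Hnrnpr reversed to 0.10, on its reference transcript of 21452 bases. With the trend on coding length removed, chosen after the data were seen, 13 lay below, and the medians were 0.073 for the Snrp genes, 0.073 for the Sm ring, -0.034 for the SR proteins and 0.025 for the exon junction complex list. Of 22 single genes, 12 besides Hnrnpr moved by more than the margin set for single genes under transcript length and 16 under coding length. A fold of 1.1 in place of 1.2 gave 10 genes higher, and 99% intervals left 4 below 1. Among members with a transcript of at least 2000 bases the Snrp median was 0.064, and below 2000 bases the U2AF median was 0.13. Of the 32 genes with under 10% of their words in other genes, 13 intervals lay above 1, beside 13 of the other 21 genes. These last settings were chosen after the data were seen, and fewer genes enter them. The cause of the other shifts was not tested.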
